A study of Homo sapiens with 4 samples.

Results

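Matricellular and fibrillar glycoproteins are secreted proteins that build the extracellular matrix or tune how cells attach to it, and 10 of their genes were examined in the human glioma cell line U87. The genes were FN1, SPARC, TNC, POSTN, THBS1, THBS2, SPP1, TGFBI, FBN1 and FBLN1. They were chosen by name, with earlier results of these data known. Each was found as 1 row among the 19314 genes of the deposited table. Tests were run on the 16595 genes whose FPKM was not 0 in all 4 libraries, and the 10 were among them. POSTN entered through a single value of 0.02 in 1 library, so the other 9 carry the measurements.

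RNA from 4 libraries was sequenced, 2 from cells with PTPRN knockdown (titled PTP2) and 2 from control cells (titled SCR). PTPRN encodes a protein of secretory vesicles from the receptor-type tyrosine phosphatase family, and the study describes its phosphatase domain as inactive. According to the study's methods the cells carried a short hairpin RNA in the vector pLKO.1, and the control vector carried a sequence that matches no known human coding gene. The study lists 2 hairpins against PTPRN, and the labels do not say which of them the PTP2 cells carried. Loss of PTPRN and other effects of a hairpin cannot be told apart. The labels do not say whether the replicates came from separate cultures, and p-values therefore measure the spread between these libraries, which may be technical. The growth protocol in the labels names hCMEC/D3, a brain endothelial line, in DMEM/F12 with B27, insulin, EGF and bFGF, a medium that the study's methods give for a limiting dilution assay. The methods describe U87 in DMEM with serum, and the medium of the sequenced cells was not settled from these sources.

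PTPRN had an FPKM of 12.09 and 11.68 in the PTP2 libraries and of 84.84 and 85.02 in the SCR libraries, so its mean was 7.15-fold lower in the knockdown (limma adjusted p = 1.48e-04). FPKM is the number of fragments on a gene per kilobase of transcript and per 1000000 mapped fragments, so it can be compared between genes. About 18200000 to 19800000 reads per library were estimated from the steps between low FPKM values. The defining endothelial genes CDH5 and CLDN5 were at 0.03 FPKM or less, and the 10 endothelial markers summed to 4.03 to 4.57 FPKM with PTP2 and to 4.72 to 4.77 with SCR (2 lower and 3 higher at a limma adjusted p of 0.05). Of the glioma line markers, VIM, CD44, S100A6, ANXA1, CAV1, TIMP1 and NES reached 10 FPKM in at least 1 library, while the glial genes GFAP, OLIG2 and SOX2 were at 1.15 FPKM or less. These 10 markers were mixed, with 4 lower and 5 higher with PTP2 at a limma adjusted p of 0.05. By that rule 27.1% of all tested genes were lower and 30.8% higher.

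Fibronectin, the product of FN1, is assembled into fibrils by cells through integrin receptors and serves as a scaffold for other matrix proteins. Fibrillin (FBN1) forms microfibrils, on which latent TGF-beta is stored, and fibulin-1 (FBLN1) binds fibronectin. Matricellular proteins (SPARC, TNC, POSTN, THBS1, THBS2, SPP1 and TGFBI) act less as structural parts than as signals between cells and matrix. In glioblastoma, tenascin-C and fibronectin are known as parts of the matrix around vessels and invading cells, and osteopontin (SPP1) is known as a ligand of CD44.

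The genes lie on 8 chromosomes, and the positions below are those of the deposited table, which are GRCh38 positions. FN1 lies on chromosome 2 from 215360440 to 215436070 on the minus strand, 3.85 megabases from PTPRN. TNC lies on chromosome 9 from 115019575 to 115118257 and POSTN on chromosome 13 from 37562145 to 37598844, both on the minus strand. TGFBI (136028895 to 136063818, plus strand) and SPARC (151661096 to 151687054, minus strand) share chromosome 5, at a distance of 15.6 megabases. THBS1 (39581079 to 39598918, plus strand) and FBN1 (48408306 to 48645788, minus strand) share chromosome 15, 8.81 megabases apart. THBS2 lies on chromosome 6 from 169215780 to 169254114 (minus strand), SPP1 on chromosome 4 from 87975650 to 87983411 and FBLN1 on chromosome 22 from 45502839 to 45601134 (both plus strand). Paralogs such as THBS1 and THBS2 lie on different chromosomes, so no pair of members is a local cluster. GENCODE 29 lists all 10 as protein-coding genes, with 8 (SPP1) to 68 (FBN1) separate exon blocks.

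The start regions of the 10 genes were searched for short motifs. The RefSeq windows (GRCh38.p14, 250 bases before to 50 bases after the start) of all 10 were found, and both strands were read. A TATA box (TATAAN) was present in 4 of 10 windows, against 20.4% of the 35116 RefSeq windows of the same length. The TATA boxes nearest to the start began 27 to 29 bases before it, and the capitals mark them in these windows of 30 bases.
FN1 (chr2:215436079-215436108, minus strand): gggaccgtcccaTATAAGccccggctcccg
TNC (chr9:115118167-115118196, minus strand): aggagctcgctaTATAAGccagccaaagtt
THBS2 (chr6:169253858-169253887, minus strand): ggagaagcggcaTATAAAgccgcgctgccc
POSTN (chr13:37598780-37598809, minus strand): ctctgacatgtaTATAAAttctgagctctc
FN1, TNC and THBS2 fell with PTP2, while POSTN was not detectable and offers no contrast. SPARC, THBS1, SPP1, TGFBI, FBN1 and FBLN1, whose windows held no TATA box, fell as well.

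The motif GGAATG, the core of the sites of TEAD factors, was also present in 4 of 10 windows, against 14.0% of all windows. A cyclic AMP response element (TGACGTCA) was found before FN1 alone among the 10, against 1.85% of all windows, and an AP-1 motif (TGANTCA) before POSTN alone, against 7.71%. The capitals mark these motifs, or their reverse complement in SPARC.
SPARC (chr5:151686915-151686944, minus strand): taaacccctccaCATTCCcgcggtccttca
THBS1 (chr15:39581021-39581050, plus strand): gaggaatccccaGGAATGcgagcgcccctt
THBS2 (chr6:169253920-169253949, minus strand): cattccttcgaaGGAATGaattaaacgtgc
FBN1 (chr15:48645011-48645040, minus strand): gggttgggcttgGGAATGgggaccgcgagg
FN1 (chr2:215436233-215436262, minus strand): acagtcccccgTGACGTCAcccggagcccg
In THBS2 the copy shown begins 91 bases before the start, and its reverse complement begins 103 bases before it. No match of these motifs overlapped one of another motif. These matches are descriptions of the sequence, and any part of theirs in the changes was not tested. The start of FBN1 in the deposited table lies 818 bases upstream of the RefSeq start used here, while for the other 9 genes both starts lie within 268 bases of each other.

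Expression of the matrix glycoproteins was lower in the knockdown. On the log2(FPKM + 1) scale with limma, 9 of the 10 genes were lower with PTP2 at an adjusted p not above 0.05, and 0 were higher. Of all tested genes, 27.1% were lower and 30.8% higher by this rule, 57.9% together. At the thresholds of the study (a 2-fold change or more with an adjusted p no higher than 0.001), 5 of the 10 genes were lower, namely FN1, TGFBI, THBS1, TNC and FBN1, and 0 were higher. Of all tested genes, 4.06% were lower and 2.63% higher by these thresholds, 6.69% together. In the fit of the 11480 expressed genes, 780 were lower and 509 higher by them. Both PTP2 libraries lay below both SCR libraries for 9 of the 10 genes and above them for 0, against 35.8% and 39.7% of all tested genes. Since the 10 genes were chosen with earlier results of these data known, these contrasts describe them and are not a test. The median log2 fold change of the 10 genes was -1.04, and that of all tested genes was 0.012 (0.058 for the 11480 expressed genes). The former includes the fitted value of POSTN near 0. With 2 against 2 libraries, a two-sided exact permutation test cannot give a p below 0.333, so each call rests on limma's model. That model assumes normal errors and combines each gene's own spread with an estimate pooled over genes. With a pseudocount of 0.1, with the replicate number as a block, or with any library left out, 0 of the 10 genes and 0 of all genes passed 0.001 in limma, while 9 of the 10 genes had an unadjusted p under 0.05 in each of these fits. So did 61.4% and 60.9% of all genes in the first pair of fits, and 53.5% to 54.2% with a library left out.

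**Figure D1:**
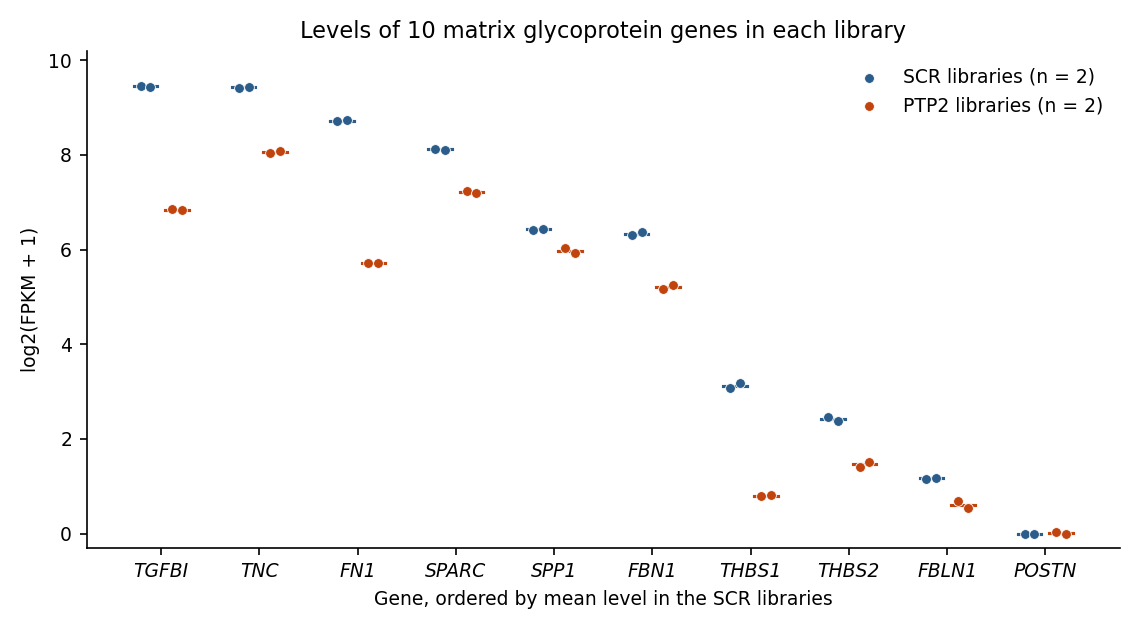
Each point is the log2(FPKM + 1) of a gene in 1 library, for the 2 SCR libraries (blue) and the 2 PTP2 libraries (orange), with a line at the group mean and genes ordered by their mean in the SCR libraries. The groups stay apart for 9 genes, from TGFBI (704.61 and 690.79 FPKM with SCR) down to FBLN1 (1.22 and 1.27), while POSTN sits at 0.

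FN1 had the largest fall of the 10 genes on the log2(FPKM + 1) scale, while THBS1 fell further as a ratio of means and with a pseudocount of 0.1 (log2 fold change -3.22, against -3.03 for FN1). Its FPKM was 51.63 and 51.54 in the PTP2 libraries and 417.39 and 424.73 in the SCR libraries. The replicates lay close together and the groups were far apart. The mean was 8.16-fold lower with PTP2 (51.6 ± 0.0636 against 421 ± 5.19, SD, n = 2 each), with a log2 fold change of -3.00 (SE 0.03, limma adjusted p = 1.24e-04). Among all tested genes by level, FN1 ranked 118 to 123 in the SCR libraries and 1537 to 1541 in the PTP2 libraries. The table assigns 10 transcripts to FN1 and gives a single value for the gene, so its splice forms were not told apart.

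TGFBI encodes a secreted protein with fasciclin domains that binds integrins and is named for its induction by TGF-beta. It had an FPKM of 115.03 and 113.05 with PTP2 and of 704.61 and 690.79 with SCR. Its mean was 6.12-fold lower (114 ± 1.40 against 698 ± 9.77, SD, n = 2 each), and the log2 fold change was -2.60 (SE 0.03, limma adjusted p = 1.48e-04). POSTN, which encodes periostin, a close relative of TGFBI, was listed at 0.02 and 0 with PTP2 and at 0 in both SCR libraries. The value of 0.02 corresponds to about 1 read, and 3 reads would give an FPKM of 0.0454 to 0.0493. POSTN was therefore not detectable at this depth in either group, and its fitted value near 0 is not read as a fold change.

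Tenascin-C (TNC), a large hexameric protein that modulates adhesion to fibronectin, had an FPKM of 262.87 and 269.00 with PTP2 and of 683.99 and 689.19 with SCR. The mean was 2.58-fold lower (266 ± 4.33 against 687 ± 3.68, SD, n = 2 each), with a log2 fold change of -1.37 (SE 0.03, limma adjusted p = 2.43e-04). It remained highly expressed. With PTP2 it ranked 233 to 238 among all genes, against 51 to 53 with SCR. DEC1 overlaps TNC on the opposite strand over 129 exonic bases, and was at 0.09 FPKM or less.

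SPARC, a collagen-binding matricellular protein, fell by less. Its FPKM was 149.24 and 146.43 with PTP2 and 279.26 and 275.02 with SCR. The groups did not overlap, and the mean was 1.87-fold lower (148 ± 1.99 against 277 ± 3.0, SD, n = 2 each), with a log2 fold change of -0.90 (SE 0.03, limma adjusted p = 3.81e-04). It thus passed the adjusted p of 0.001 but not the fold change of 2. Under quantile normalization the log2 fold change was -1.05.

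Thrombospondins bind CD36, CD47 and integrins, and thrombospondin-1 is known as an activator of latent TGF-beta. THBS1 had an FPKM of 0.73 and 0.75 with PTP2 and of 7.42 and 8.06 with SCR. The mean was 10.5-fold lower (0.740 ± 0.0141 against 7.74 ± 0.453, SD, n = 2 each), while its log2 fold change with a pseudocount of 1 was -2.33 (SE 0.05, limma adjusted p = 2.39e-04). With a pseudocount of 0.1 it was -3.22. About 96 reads lay behind the value of PTP2 replicate 1 (95% exact Poisson interval 77.8 to 117) and 1057 behind that of SCR replicate 1 (994 to 1123). These intervals cover counting error only. FSIP1 overlaps THBS1 on the opposite strand over 448 exonic bases and had an FPKM of 1.38 and 1.28 with PTP2 and of 0.84 and 1.03 with SCR. Whether counting used the strand is not given in the sources used here, so reads in this overlap cannot be assigned to either gene.

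THBS2 was at a low level in both groups, with an FPKM of 1.66 and 1.86 with PTP2 and of 4.53 and 4.21 with SCR. The mean was 2.48-fold lower (1.76 ± 0.141 against 4.37 ± 0.226, SD, n = 2 each). On the log2(FPKM + 1) scale, which understates the change of low genes, this was -0.96 (SE 0.06, limma adjusted p = 8.78e-04), just short of the fold change of 2. With FPKM scaled to a total of 1000000 per library it was -1.19 (limma adjusted p = 9.47e-04), which passes both thresholds. The ratio of THBS1 to THBS2 was 0.440 and 0.403 in the PTP2 libraries and 1.64 and 1.91 in the SCR libraries. THBS1 was the higher of the pair in the control and the lower in the knockdown.

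SPP1 encodes osteopontin, a phosphorylated ligand of integrins and CD44. It had the smallest fall of the expressed members, with an FPKM of 64.53 and 59.77 with PTP2 and of 84.80 and 85.88 with SCR. The mean was 1.37-fold lower (62.1 ± 3.37 against 85.3 ± 0.764, SD, n = 2 each), and the log2 fold change was -0.45 (SE 0.05, limma adjusted p = 0.00354). The gap between the groups was larger than the distance between replicates. Without SCR replicate 1 or SCR replicate 2 the adjusted p rose to 0.0642 and 0.0681 (limma), and the log2 fold change was -0.46 and -0.44.

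FBN1, the fibrillin of adult microfibrils, had an FPKM of 35.08 and 37.12 with PTP2 and of 77.88 and 81.58 with SCR. The mean was 2.21-fold lower (36.1 ± 1.44 against 79.7 ± 2.62, SD, n = 2 each), with a log2 fold change of -1.12 (SE 0.05, limma adjusted p = 4.95e-04). FBLN1, which encodes fibulin-1, was at a low level and rested on few reads, with an FPKM of 0.61 and 0.45 with PTP2 and of 1.22 and 1.27 with SCR. The mean was 2.35-fold lower (0.530 ± 0.113 against 1.25 ± 0.0354, SD, n = 2 each), and the log2 fold change was -0.56 (SE 0.06, limma adjusted p = 0.00398). It was -1.11 with a pseudocount of 0.1 and -0.85 at a total of 1000000 per library. At most about 32 reads lay behind the value of PTP2 replicate 1 (95% exact Poisson interval 21.9 to 45.2) and 70 behind that of SCR replicate 1 (54.6 to 88.4), if all came from the longest transcript. Without SCR replicate 1 or SCR replicate 2 the adjusted p of FBLN1 was 0.0721 and 0.0786 (limma).

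**Figure D2:**
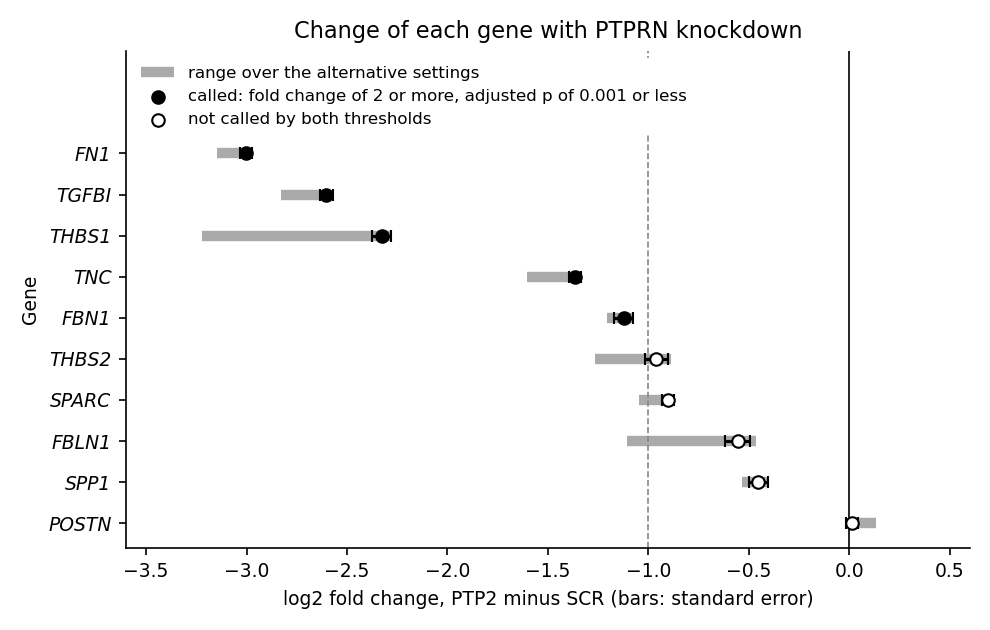
Points are the log2 fold changes of each gene (PTP2 minus SCR, log2(FPKM + 1) scale) with their standard errors, filled where both thresholds were passed, and grey bars span the values over the alternative settings. FN1 (-3.00), TGFBI (-2.60), THBS1 (-2.33), TNC (-1.37) and FBN1 (-1.12) lie beyond the dashed line at a fold change of 2 under each setting, and POSTN is drawn at its fitted value near 0.

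**Figure D3:**
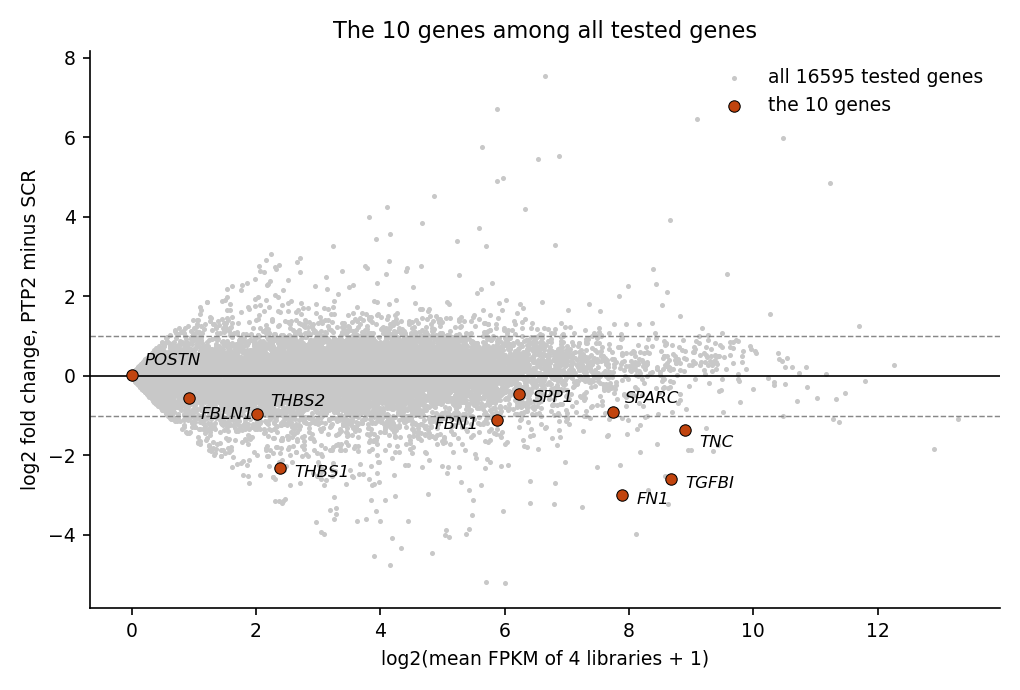
Each grey point is 1 of the 16595 tested genes, by its mean level over the 4 libraries (log2(FPKM + 1)) and its log2 fold change (PTP2 minus SCR), with dashed lines at a fold change of 2. FN1 (-3.00) and TGFBI (-2.60) lie low among the highly expressed genes on the right, and POSTN lies at the left end at 0.

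The order of the members by level differed between the groups. With SCR it was TGFBI, TNC, FN1, SPARC, SPP1, FBN1, THBS1, THBS2, FBLN1 and POSTN. The means of TGFBI and TNC were 11.1 FPKM apart, less than the 13.8 between the replicates of TGFBI. Those of SPP1 and FBN1 were 5.61 apart, against 3.70 between the replicates of FBN1. With PTP2 the order was TNC, SPARC, TGFBI, SPP1, FN1, FBN1, THBS2, THBS1, FBLN1 and POSTN. The closest neighbours there were THBS1 and FBLN1, whose means were 0.21 FPKM apart, against 0.16 between the replicates of FBLN1. TGFBI and TNC with SCR were thus the only neighbours in either order whose means lay closer than their replicates.

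Members did not fall in proportion to each other. The ratio of FN1 to TNC was 0.196 and 0.192 in the PTP2 libraries against 0.610 and 0.616 in the SCR libraries, and that of TGFBI to TNC was 0.438 and 0.420 against 1.03 and 1.00. Conversely, the ratio of SPARC to TNC was higher with PTP2 (0.568 and 0.544) than with SCR (0.408 and 0.399), as was that of SPP1 to TNC (0.245 and 0.222 against 0.124 and 0.125). These ratios are taken within a library, so a scaling of the whole library does not change them. Together the 10 genes summed to 681 and 680 FPKM with PTP2 and to 2261 in each SCR library. This was 0.153% and 0.155% of the total FPKM of the PTP2 libraries, and 0.532% and 0.538% of that of the SCR libraries. TNC held 38.6% and 39.6% of the sum with PTP2 and 30.3% and 30.5% with SCR. The share of FN1 was 7.58% in both PTP2 libraries and 18.5% and 18.8% in the SCR libraries. In RNA from whole cultures, fewer cells of a type and less RNA per cell cannot be told apart.

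**Figure D4:**
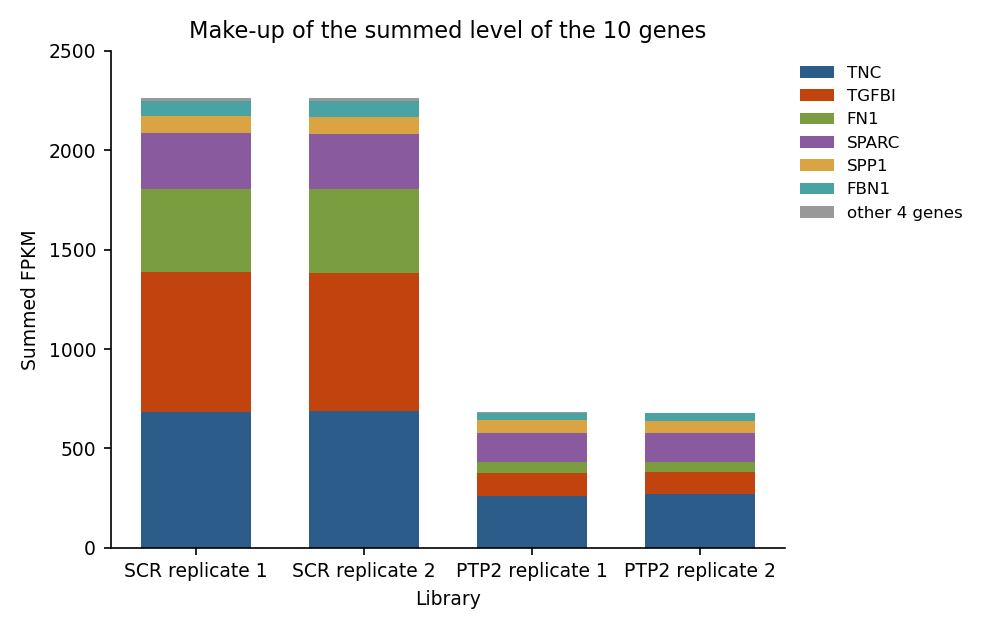
Bars give the summed FPKM of the 10 genes in each library, divided by gene, with the 4 least expressed genes drawn together. The SCR bars reach 2261 and the PTP2 bars 681 and 680, and the parts of TGFBI and FN1 shrink more than those of TNC, SPARC and SPP1.

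Most markers of fibroblast-like cells were lower as well. Of the 8 fibroblast markers examined, 7 were lower with PTP2 at a limma adjusted p up to 0.05, and PDGFRA was higher. By this rule 27.1% of all tested genes were lower and 30.8% higher. Their summed level was 56.9 to 58.2 FPKM with PTP2 and 638 to 648 with SCR, most of it COL1A1 (31.32 and 33.15 against 525.01 and 515.09). DPT was listed at 0 in both PTP2 libraries and at 1.48 and 1.90 with SCR. Several of these markers are matrix genes themselves, and their part in the result was not tested. The 7 myeloid markers summed to 5.11 to 5.98 FPKM with PTP2 and 6.72 to 6.99 with SCR, with AIF1 and TYROBP listed without a value. The 6 epithelial markers summed to 4.11 to 4.15 and 10.4 to 11.1 FPKM, with EPCAM at 0.33 or less. Of these, 2 were lower and 0 higher with PTP2 at a limma adjusted p up to 0.05. They were KRT8 (1.97 and 1.99 with PTP2 against 6.34 and 5.98 with SCR) and KRT18 (0.48 and 0.66 against 2.97 and 3.09).

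Other matricellular genes were mostly lower as well. Of 26 genes in this list, 24 were tested, 14 were lower at a limma adjusted p up to 0.05 and 0 were higher, with 5 lower by both thresholds. The share lower was 58.3%, against 27.1% of all tested genes. Their median log2 fold change was -0.34. It was -0.81 among those with an FPKM of at least 1 in 2 libraries, against 0.058 for all such genes. The highest expressed genes called by both thresholds were WISP1, ECM1 and CTGF. WISP1, a CCN family protein of Wnt signaling, had an FPKM of 3.08 and 2.77 with PTP2 and of 63.50 and 64.49 with SCR, a log2 fold change of -4.05 (SE 0.05, limma adjusted p = 1.49e-04). ECM1 fell from 62.26 and 59.56 to 27.43 and 28.95 FPKM. CTGF, a CCN protein that binds integrins and growth factors, fell from 14.33 and 13.61 to 4.83 and 4.63 FPKM. Among genes that missed at least 1 of the thresholds, the highest expressed were the galectins LGALS1 (log2 fold change -0.55) and LGALS3 (-0.32) and the SPARC relative FSTL1 (-0.73). All were at an adjusted p below 0.05 (limma).

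Microfibril, elastic fibre and basement membrane glycoproteins were more mixed. Of 35 genes, 32 were tested, of which 15 were lower and 5 higher at a limma adjusted p up to 0.05, with 6 and 1 by both thresholds. The share called was 62.5%, against 57.9% of all tested genes. By direction, 46.9% were lower and 15.6% higher, against 27.1% and 30.8% of all tested genes. The median log2 fold change was -0.085, with 16 of the 32 at a mean FPKM under 1, and it was -0.67 among those with an FPKM of at least 1 in 2 libraries. MFAP4, a microfibril-associated protein, had an FPKM of 6.69 and 5.75 with PTP2 and of 80.26 and 80.35 with SCR (log2 fold change -3.50). NID2, a linker of basement membranes, had 18.74 and 19.23 against 84.73 and 83.49 (-2.09). LTBP1, which tethers latent TGF-beta to fibronectin and fibrillin, had 20.38 and 21.19 against 49.16 and 50.60 (-1.22). Among genes that missed at least 1 of the thresholds, the highest expressed were EFEMP2 (-0.85), LTBP3 (-0.30) and MFAP2 (-0.71). EMILIN2, named after its values were seen, was the gene that was higher by both thresholds, with 7.04 and 6.47 FPKM with PTP2 and 1.55 and 1.47 with SCR (log2 fold change 1.63).

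Among receptors of these proteins, the integrin chains ITGA3, ITGA5 and ITGB1 were lower with PTP2, while CD44 and ITGB3 were higher. Of 20 receptor genes tested, 9 were lower and 3 were higher at a limma adjusted p up to 0.05, with 4 and 1 by both thresholds. The share called was 60.0%, against 57.9% of all tested genes. By direction, 45% were lower and 15% higher, against 27.1% and 30.8%. The median log2 fold change was -0.073, with 7 of the 20 at a mean FPKM under 1. It was -0.40 with a pseudocount of 0.1 and -0.67 among those with an FPKM of at least 1 in 2 libraries. ITGA5, which pairs with ITGB1 in the main fibronectin receptor, had an FPKM of 158.83 and 159.49 with PTP2 and of 348.44 and 342.66 with SCR (log2 fold change -1.11). ITGB1 had 218.20 and 221.06 against 348.18 and 354.05 (-0.67), and ITGA3 had 159.72 and 165.98 against 538.87 and 529.98 (-1.71). CD44, the receptor of osteopontin and hyaluronan, was higher with PTP2, at 315.84 and 313.53 against 151.78 and 151.56 FPKM (log2 fold change 1.05). ITGB3, which pairs with the alpha-v chain to bind fibronectin, osteopontin and other ligands, was also higher, at 65.29 and 71.45 against 47.72 and 49.74 (0.48). The gene of the alpha-v chain, ITGAV, named after its values were seen, was lower with PTP2. It had 33.83 and 35.40 against 47.56 and 49.01 (-0.47, limma adjusted p = 0.00188). SDC4 had a log2 fold change of -0.37.

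**Figure D5:**
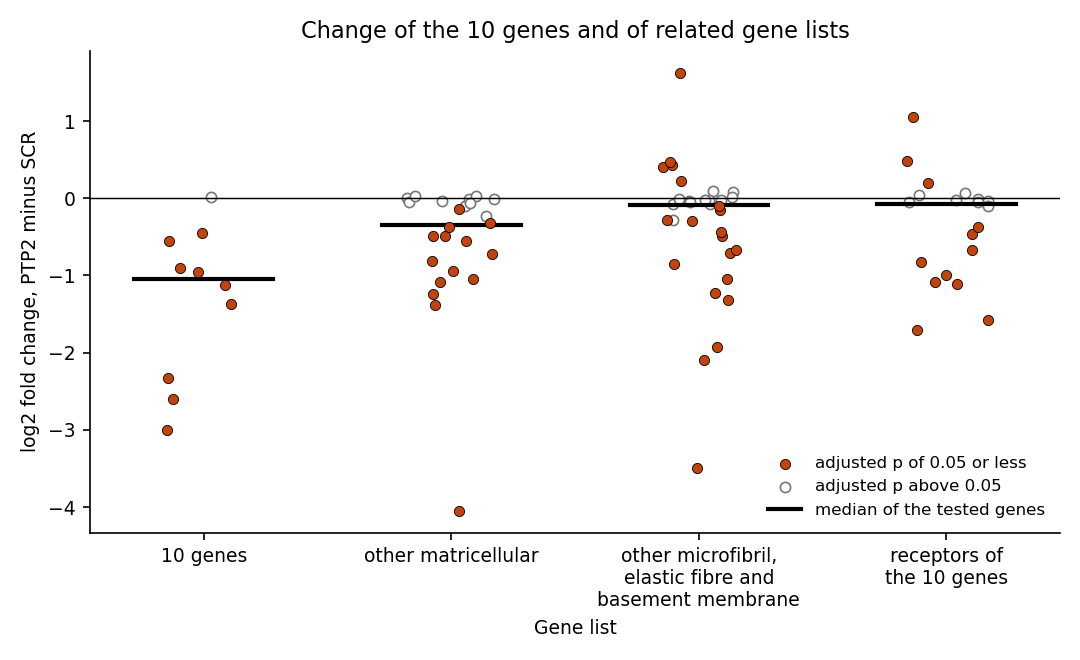
Each point is the log2 fold change of 1 tested gene (PTP2 minus SCR, log2(FPKM + 1) scale), filled at an adjusted p of 0.05 or less, with a line at the median of each list. The 10 genes have a median of -1.04, the other matricellular genes -0.34, the microfibril and basement membrane genes -0.085 and the receptors -0.073. Among genes with an FPKM of at least 1 in 2 libraries, the medians of the last 3 lists were -0.81, -0.67 and -0.67. For all such genes the median was 0.058.

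The deposited annotation places 5 of the 10 genes (FN1, TNC, THBS1, THBS2 and SPP1) in the KEGG pathway ECM-receptor interaction. It also places 273 other genes there, among them ZNF207, a zinc finger gene, and it gives SPARC the orthology of a mucin, so the list is wider than the name of the pathway. Of the 246 of these genes that were tested, 84 were lower and 51 higher at a limma adjusted p up to 0.05, with 20 and 7 by both thresholds. The share called was 54.9%, against 57.9% of all tested genes. By direction, 34.1% were lower and 20.7% higher, against 27.1% and 30.8%. The median log2 fold change was -0.035, and it was -0.23 among those with an FPKM of at least 1 in 2 libraries. The highest expressed of those called by both thresholds were the collagen chains COL1A2 (216.86 and 218.48 FPKM with PTP2 against 801.12 and 794.36 with SCR) and COL6A2 (172.79 and 169.41 against 416.62 and 391.68), besides ITGA3. Among those that missed at least 1 of the thresholds, these were ITGB1 and FSTL1, given above, and ZNF207 (log2 fold change 0.19).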

How the data were processed

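RNA was sequenced by BGI on a BGISEQ-500 (single-end reads of 50 bases). The authors deposited FPKM values per gene and library, rounded to 2 decimals, in 2 tables, and 0 of 77256 values differed between them. The submitters' processing notes name HISAT2 2.1.0 and hg19. The gene positions of the table are those of GRCh38, since 92.9% of the 19257 genes matched to RefSeq GRCh38 start within 10 kilobases of it on the same chromosome. The counting program and the use of strand are not given in the sources used here. The deposited table also holds group means and the authors' own fold changes, p-values and q-values, which were not used.

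Groups were taken from the sample titles. No counts were given, so limma (version 3.58.1, R 4.3.3; lmFit and eBayes, default options, group as the only term) was run on log2(FPKM + 1) for the 16595 genes above 0 in any library. P-values were adjusted over all of them by the Benjamini-Hochberg method. The function was tested on simulated data. Replicates gave 2 degrees of freedom and the pooled prior raised the median to 3.72. Calls used the study's thresholds (2-fold or more, adjusted p up to 0.001) or an adjusted p up to 0.05 alone.

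Depth was estimated from genes with 1 transcript, as the number of reads at which low FPKM values correspond to whole reads. At the estimate, 82.8% to 87.5% of these values lay within 0.15 of a whole read, against 30% at a fixed depth if there were no steps. The estimate was chosen for the smallest mean distance of these same values to whole reads. The shares therefore describe the fit and are not a test of it.

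The 10 genes and the lists were chosen with earlier results of these data known. Named genes are the members, PTPRN and, per list, at most the 3 highest expressed called and the 3 highest expressed other genes. In all, 11 alternatives were tried, covering the pseudocount, a minimum FPKM, scaling, the variance prior, a replicate block and leaving out each library. Sequence searches used Python 3.11.15.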

Additional observations from a re-analysis of the deposited data

How the results depend on the processing

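FN1, TGFBI, THBS1, TNC, FBN1, SPARC, THBS2 and PTPRN were lower at an adjusted p of at most 0.05 (limma) under all 11 alternatives. SPP1 and FBLN1 were lower under all 11 but lost the adjusted p of 0.05 without SCR replicate 1 or 2. With each library left out (the lone library of its group is then assumed to vary like the other group) the log2 fold change ranged from -0.51 to -0.40 for SPP1 and from -0.63 to -0.48 for FBLN1. POSTN passed the adjusted p of 0.05 in 0 of 9 alternatives and was not tested without PTP2 replicate 1 or with a minimum FPKM of 1. Between 7 and 9 of the 10 genes passed 0.05. At both thresholds the 5 members and 1111 genes became 0 and 0 with a pseudocount of 0.1, with the replicate block and with each library left out (0 to 0), at which 10185, 10108 and 8760 to 8889 genes had an unadjusted p under 0.05. Fewer degrees of freedom per gene come with the last 2 by construction, and for the pseudocount the cause was not tested. The other settings called 5 or 6 members and 1134 to 1289 genes, the sixth being SPARC with quantile normalization and THBS2 at a total of 1000000 per library. Same-numbered replicates share only a number (correlation of their deviations 0.064 over 11272 genes, 2 pairs), and the block changed no other call of a member.

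Median log2 fold changes of the lists rest on many genes near 0 and moved with the scale, in the order other matricellular, microfibril, receptor and KEGG genes. They were -0.50, -0.38, -0.40 and -0.13 with a pseudocount of 0.1, -0.81, -0.67, -0.67 and -0.23 with a minimum FPKM, and -0.47, -0.19, -0.17 and -0.083 at a total of 1000000 per library. With quantile normalization the matricellular, microfibril and KEGG medians were -0.40, -0.073 and -0.014, and with median-ratio scaling the matricellular and microfibril medians were -0.37 and -0.11. With each library left out they ranged from -0.41 to -0.34, -0.095 to -0.081, -0.10 to -0.076 and -0.046 to -0.026, and the microfibril list had 13 to 16 genes at 0.05. Depth limits POSTN, FBLN1 and THBS1 with PTP2.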

Other observations

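Relatives of the members, chosen after their values were seen, were not all lower. FBN2, the fibrillin of developing tissues, had an FPKM of 6.10 and 6.31 with PTP2 and of 6.52 and 6.62 with SCR (log2 fold change -0.07, limma adjusted p = 0.147), so the ratio of FBN1 to FBN2 was 5.75 and 5.88 with PTP2 and 11.9 and 12.3 with SCR. TNXB, the tenascin of loose connective tissue, had 0.66 in both PTP2 libraries and 2.93 and 2.90 with SCR (log2 fold change -1.24, limma adjusted p = 2.45e-04), while the tenascins TNR and TNN were at 0.01 or less in each library. THBS3 had 6.14 and 6.11 against 11.42 and 11.55 FPKM (-0.81), and THBS4 had 0.36 and 0.40 against 0.49 and 0.47 (-0.10, limma adjusted p = 0.0663). The SPARC relative SMOC1 had 28.04 and 25.31 against 52.37 and 52.23 FPKM (-0.95), while SPARCL1 was at 0.09 or less. Among relatives of FBLN1, EFEMP2 was lower with PTP2, at 30.48 and 29.02 against 56.57 and 52.45 FPKM (-0.85, limma adjusted p = 0.00102). FBLN5 was low and slightly higher with PTP2, at 0.82 and 0.65 against 0.46 and 0.50 FPKM (0.23, limma adjusted p = 0.0405). FBLN2 (-0.07), FBLN7 (-0.15) and EFEMP1 (-0.10) were at 0.14 FPKM or less in each library.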
